A study of Mus musculus with 9 samples.

Results

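The mitosis module comprised 53 genes whose products carry a cell from late G2 to the separation of its daughters. The genes were listed by name from their known roles, and all 53 were found among the 29995 genes of the deposited expression table that leaves out immunoglobulin genes. All 53 also passed the filter on low values, which kept 12892 genes with TPM (a level scaled to transcript length and library size) of 1 or more in 3 or more libraries. RNA was sequenced from 9 libraries, with 3 from naive B cells, 3 from NP-specific B cells and 3 from plasma cells (PCs) of the same specificity, all sorted from spleens of 12-week-old B6.Blimp1+/GFP mice 4 days after intraperitoneal injection of 50 µg of NP-LPS. NP-LPS is a hapten, 4-hydroxy-3-nitrophenylacetyl, coupled to lipopolysaccharide, and it drives B cells to respond without T cell help. Every group therefore carried 1 reporter allele of Prdm1 (the gene of Blimp1) and came from an immunized animal, the naive cells included. Naive B cells were IgDhigh, B220+ and NP-, NP-specific B cells (hereafter NP+ B cells) were NP+, IgD-, GFP- and CD138-, and PCs were NP+, IgD-, GFP+ and CD138+. Cells bearing CD4, CD8a, Ter-119 or F4-80 were gated out of every group. Because GFP defined the gate, the PC group was chosen by activity of the Prdm1 locus.

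Entry into mitosis is driven by Cdk1 bound to cyclins A and B, which Cdc25 phosphatases activate. Aurora and Polo-like kinases then build the spindle, the kinetochore couples each chromosome to microtubules, the checkpoint holds anaphase until all are attached, and the anaphase-promoting complex finally destroys securin and cyclin B so that separase can part the chromatids. Most of these genes are transcribed in late S phase and G2 by the MuvB complex with Mybl2 and Foxm1, and are held down in resting cells. Splenic follicular B cells are resting, antigen-activated B cells divide rapidly, and PCs divide while young and leave the cycle as they mature.

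Promoter sequence is shown first because the MuvB complex is known to recognise the cell cycle genes homology region (CHR, letters TTTGAA), often a short way downstream of CCAAT boxes bound by NF-Y. Windows from 250 bases before to 50 bases after the RefSeq start (GRCm38.p6) were matched by symbol for 44 of the 53 members. TTTGAA, read on both strands, was present in 32 of the 44 members (72.7%), against 20.2% of the 27025 genes with such a window. CCAAT, on both strands, was in 33 members (75%) against 41.1%, and both sets of letters were in 27 members (61.4%) against 7.97%. In 2 lists taken up below, further mitosis genes and DNA replication genes, CCAAT was in 63.6% and 63.6% of the genes matched. Both sets of letters were in 36.4% and 12.1% of them. TTTAAA, its own reverse complement and a variant of the CHR, was in 9 members (20.5%) against 14.9%. The 44 members had 47 windows, and a site lying in the windows of 2 starts of a gene was counted once, at its nearer start. Of the 42 TTTGAA sites, 29, in 28 genes, began within 40 bases of the start. A match is a description of letters and not evidence of binding, and these windows were not tested for it. The stretches below, chosen from 16 members described in the results, are the 11 that could be cut with at most 30 annotated exonic bases. They hold 1 of the 12 members called lower in PCs, Ccnb2. They run 5′ to 3′ on the strand of the gene, with TTTGAA and CCAAT matches of either orientation (TTCAAA and ATTGG in the opposite one) in capitals.
Cdk1, chr10:69352909-69353028, minus strand: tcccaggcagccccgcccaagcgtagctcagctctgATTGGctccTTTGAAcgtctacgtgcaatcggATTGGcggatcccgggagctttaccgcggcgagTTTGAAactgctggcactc
Ccnb2, chr9:70421525-70421644, minus strand: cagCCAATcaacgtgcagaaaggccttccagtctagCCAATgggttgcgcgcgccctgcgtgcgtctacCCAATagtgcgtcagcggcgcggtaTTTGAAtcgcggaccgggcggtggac
Cdc20, chr4:118437323-118437442, minus strand: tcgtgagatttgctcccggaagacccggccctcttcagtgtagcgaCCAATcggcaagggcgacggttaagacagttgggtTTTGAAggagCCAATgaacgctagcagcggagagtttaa
Ube2c, chr2:164769808-164769927, plus strand: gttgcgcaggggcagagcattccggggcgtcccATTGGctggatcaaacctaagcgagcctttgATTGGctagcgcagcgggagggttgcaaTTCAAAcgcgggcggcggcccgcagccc
Top2a, chr11:99024160-99024279, minus strand: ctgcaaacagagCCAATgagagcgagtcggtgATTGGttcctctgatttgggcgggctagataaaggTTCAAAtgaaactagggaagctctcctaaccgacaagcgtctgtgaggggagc
Kif11, chr19:37376292-37376411, plus strand: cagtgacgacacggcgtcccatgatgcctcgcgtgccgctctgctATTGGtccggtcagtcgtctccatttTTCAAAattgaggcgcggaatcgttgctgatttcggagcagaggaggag
Espl1, chr15:102296176-102296295, plus strand: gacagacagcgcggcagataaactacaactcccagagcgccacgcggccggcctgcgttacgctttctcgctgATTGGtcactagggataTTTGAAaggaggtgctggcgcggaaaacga
Ncapg, chr5:45669829-45669948, plus strand: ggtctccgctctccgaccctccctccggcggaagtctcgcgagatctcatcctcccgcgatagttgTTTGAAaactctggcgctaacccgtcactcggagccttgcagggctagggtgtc
Ccnb1, chr13:100786541-100786660, minus strand: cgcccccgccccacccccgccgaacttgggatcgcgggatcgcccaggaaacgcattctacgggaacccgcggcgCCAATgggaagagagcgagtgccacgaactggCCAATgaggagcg
Cdc25b, chr2:131186858-131186977, plus strand: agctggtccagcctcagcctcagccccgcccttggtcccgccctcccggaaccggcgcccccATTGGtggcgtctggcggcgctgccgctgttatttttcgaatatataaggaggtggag
Mki67, chr7:135716350-135716469, minus strand: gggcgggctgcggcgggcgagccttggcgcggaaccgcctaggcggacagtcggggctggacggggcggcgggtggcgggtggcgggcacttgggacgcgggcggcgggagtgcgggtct
The stretches of Cdk1, Ccnb2, Cdc20, Ube2c, Top2a, Kif11 and Espl1 held TTTGAA together with CCAAT. That of Ncapg held TTTGAA alone, those of Ccnb1 and Cdc25b held CCAAT alone, and that of Mki67 held neither, its matches lying further upstream.

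**Figure D1:**
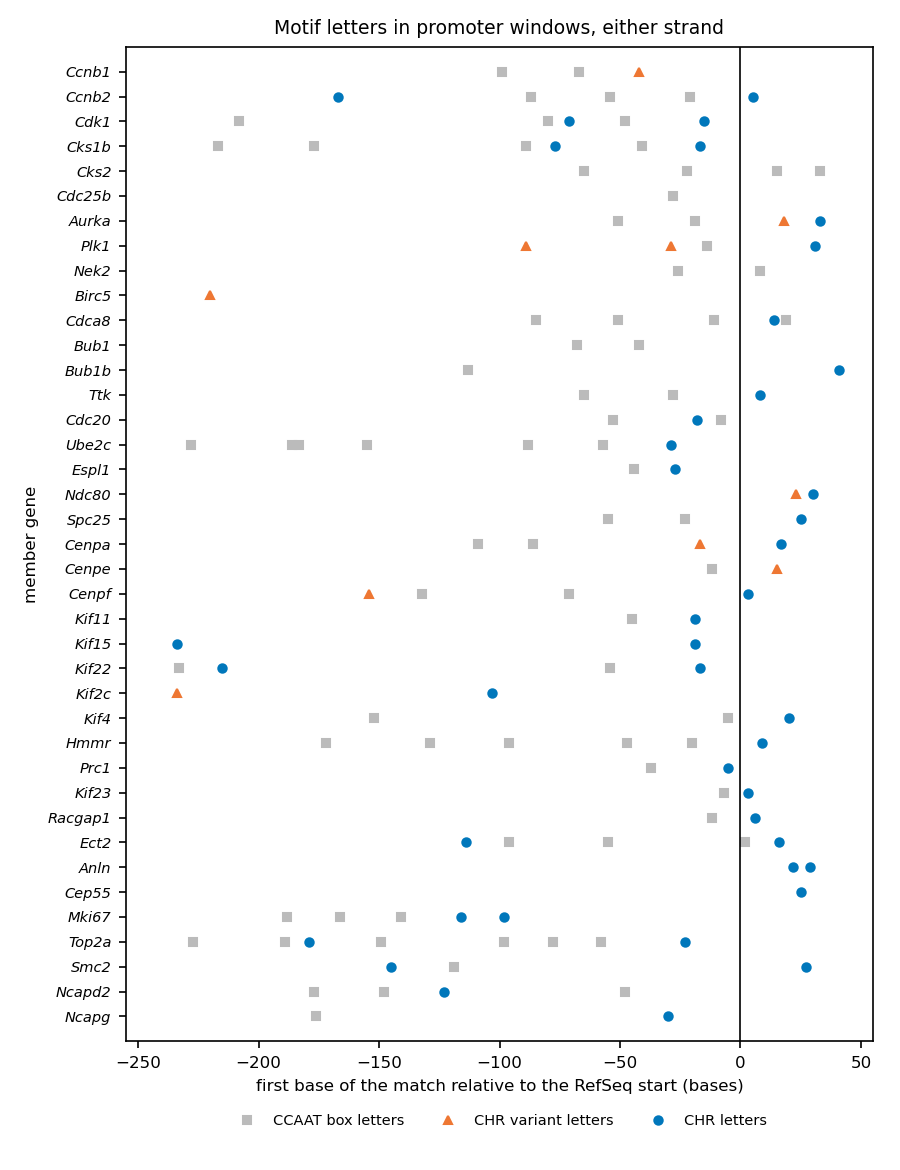
Position of motif letters in the promoter windows of the members that held any of them, as the distance in bases of the first matched base from the RefSeq start (line at 0). Blue circles mark the CHR letters TTTGAA, orange triangles the variant TTTAAA and grey squares CCAAT, each on either strand; 29 of the 42 blue circles lie within 40 bases of the start.

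Naive B cells and PCs carried the defining transcripts of their labels. The summed level of 5 PC genes was 4811 to 5939 TPM in the PC libraries and at most 194 TPM elsewhere, and that of 5 resting B cell genes was 2269 to 2328 TPM in naive B cells, 901 to 1046 TPM in NP+ B cells and at most 33.9 TPM in PCs. The 5 PC genes were Prdm1, Sdc1, Xbp1, Irf4 and Tnfrsf17. Prdm1 was reported by GFP and Sdc1 encodes CD138, so high levels of both in PCs were set by the sort. Most of the PC sum was Xbp1, at 4240, 4564 and 3717 TPM in PCs. Of 6 germinal centre genes the sum was 52.9 to 60.3 TPM in naive cells, 186 to 265 TPM in NP+ B cells and 8.65 to 12.2 TPM in PCs, and that of 7 genes of all B cells was 8976 to 9381 TPM, 6909 to 7442 TPM and 1685 to 1827 TPM in the same order. These sums moved with the groups, as the module did, and their part in its levels was not tested. From naive to NP+ B cells 1 gene of the germinal centre list, Bcl6, ran against its sum. It was at 44.4, 41.2 and 50.1 TPM in naive cells and 17.4, 14.7 and 18.6 TPM in NP+ B cells. Klf2 did so in the resting list, at 41.4, 37.98 and 44.4 TPM in naive cells and 78.4, 58.04 and 122 TPM in NP+ B cells. Among the genes of all B cells Ms4a1 did so, at 766, 859 and 967 TPM (naive) and 1114, 1330 and 1388 TPM (NP+ B). Ptprc overlapped between these groups. The PC gene sum was 142 to 167 TPM in naive cells and 175 to 194 TPM in NP+ B cells. Against it, Irf4 went from 22.8, 24.07 and 28.5 TPM to 7.12, 14.004 and 12.2 TPM. Sdc1 went from 8.48, 4.33 and 8.25 TPM to 0.093, 1.26 and 1.48 TPM. The libraries held 20189900 to 38602300 estimated reads outside immunoglobulin genes, and no member had fewer than 58.2 estimated reads in any library. PC replicate 3 held 3069 TPM of 6 hepatocyte genes, which summed to at most 2.06 TPM in the other 8 libraries, and NP+ B cell replicate 2 held 50.2 TPM of 6 neutrophil genes, against 1.23 to 2.74 TPM in the naive libraries and 5.07 to 32.9 TPM in PCs. These 2 libraries also had the lowest level of their group for most members: NP+ B cell replicate 2 for 43 of 53, and PC replicate 3 for 34 of 53. Naive replicate 1 was the lowest of its group for 32 of 53, with 2.06 TPM of the hepatocyte and 2.67 TPM of the neutrophil genes. Whether hepatocyte or neutrophil RNA had a part in the member levels was not tested. The summed level of 7 macrophage and monocyte genes, 11.8 to 12.6 TPM in naive B cells, was 69.4 to 86.0 TPM in NP+ B cells and 38.9 to 111 TPM in PCs, and so moved with the groups. In NP+ B cells most of that sum was Cd68, at 67.6, 45.0 and 60.1 TPM, and Itgam was at 15.6, 16.04 and 12.3 TPM, against 2.09 to 2.73 TPM in naive cells. C1qa and C1qb were at or near 0 there (at most 0.0393 TPM), and Lyz2 reached 48.2 TPM in PC replicate 3. The part of other cells in those levels was not tested, and counts without each library are given below. In bulk RNA a larger share of dividing cells cannot be told apart from more RNA per dividing cell.

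The first comparison asked how the module differed between naive and NP+ B cells. With a limma fit over all genes, 51 of the 53 members were higher in NP+ B cells (Benjamini-Hochberg adjusted p under 0.05 and fold change over 2), where 8.13% of all genes tested were called higher, and 0 were lower, where 10.4% were. The median log2 change of the members was 2.96, on the log2(TPM + 0.5) scale, against -0.16 over all genes. By mean TPM, 49 members were over 4-fold and 24 over 10-fold higher, and the ratios of the called members ran from 3.09 for Smc4 to 28.6 for Ccnb2. The summed level of the members was 715 ± 63.5 TPM in naive B cells and 4617 ± 581 TPM in NP+ B cells (SD, n = 3). All 51 were above every naive library in every NP+ B cell library, whereas 23.6% of all genes were. The exceptions were Cdc25b and Pttg1, which were already abundant in naive B cells. At any fold 51 were higher, where 18.6% of all genes were, and 1, Pttg1, was lower, where 23.5% were. The counts past 2-fold were the same without any 1 library. At any fold the members lower ranged from 0 to 2 without 1 library, and the any-fold call of Pttg1 was lost under most alternatives, with adjusted p between 0.0042 and 0.16.

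The second comparison set PCs against the same naive libraries. In PCs 49 members were higher (11.4% of all genes tested) and 0 lower (26.3%), with a median log2 change of 2.35 against -0.47 over all genes. The 4 that were not called were Cdc25b, Pttg1, the kinetochore gene Ndc80 (0.65 ± 0.26 SE, adjusted p = 0.048, under 2-fold) and the condensin gene Smc4 (0.38 ± 0.17, adjusted p = 0.086). Ndc80 was called higher with median-of-ratios scaling (1.13, adjusted p = 0.0031) and with quantile normalization (1.19, adjusted p = 0.0014). With immunoglobulin genes kept its log2 change was -0.48 (adjusted p = 0.13). At any fold 50 were higher (18.2% of all genes) and 2, Cdc25b and Pttg1, lower (42.2%). Without naive replicate 3, 1 member was called lower past 2-fold, Pttg1. The any-fold call of Cdc25b was lost without PC replicate 3 (-0.31, adjusted p = 0.051), without naive replicate 1 (adjusted p = 0.07) or 3 (adjusted p = 0.058), without the filter (adjusted p = 0.052) and with quantile (adjusted p = 0.054) or median-of-ratios scaling (adjusted p = 0.77). When immunoglobulin genes were kept in the table, 34 members were higher in PCs (4.47% of all genes) and 2 lower, Cdc25b and Pttg1 (64.5%), and the median was 1.21 against -1.40 over all genes. The largest rise among the members was that of Mki67, at 4.62 ± 0.28.

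The third comparison asked how PCs differed from NP+ B cells of the same response. Of the 53 members 12 (22.6%) were lower in PCs and 0 higher, and 22.3% of all genes tested were lower and 9.93% higher, so the count of called members was close to the background. The 12 were Ccnb2, Mybl2, Nek2, Cdca8, Ndc80, Cenpe, Cenpf, Kif15, Kif20a, Kif23, Cep55 and Smc4. The median log2 change of the members was -0.65, against -0.30 over all genes. At any fold, 36 members (67.9%) were lower, where 38.1% of all genes were, and 1 was higher, Mki67, where 15.7% were. The libraries of the 2 groups did not overlap for 30 members that were lower in PCs (56.6%, against 40.9% of all genes) and for 2 that were higher, Mki67 and Ncapg (3.77%, against 17.3%). Mki67 was at 0.32 to 0.56 without 1 library (adjusted p = 0.0035 to 0.15). The sum over the members was 3352 ± 283 TPM in PCs. In the table that keeps immunoglobulin genes the sums were 669 ± 59.5 TPM in naive B cells, 4129 ± 504 TPM in NP+ B cells and 977 ± 41.9 TPM in PCs.

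The calls of this comparison depended on the scaling between libraries. With immunoglobulin genes kept 49 members were lower, where 59.7% of all genes were. With median-of-ratios scaling 3 members were lower (Kif15, Mybl2 and Ndc80), against 14.7% of all genes, and with quantile normalization 1 was (Kif15), against 14.3%. Under these scalings the median over all genes moved from -0.30 to 0.04 and 0.00. The counts of lower members given for each role below are those of the fit as reported, in which 22.3% of all genes were lower. The difference between the member median and the median of all genes was -0.35 as reported, -0.31 and -0.26 under those scalings, and -0.53 with immunoglobulin genes. Without NP+ B cell replicate 2 there were 14 lower members (Plk1 and Kif22 were added), and without PC replicate 3 there were 10 (Ccnb2 and Cenpf were lost). Without NP+ B cell replicate 1 Ccnb2 and Cep55 lost the call, Kif22 gained it without NP+ B cell replicate 3, PC replicate 1 or PC replicate 2, and Plk1 gained it without PC replicate 2; each of these genes lay close to 2-fold.

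**Figure D2:**
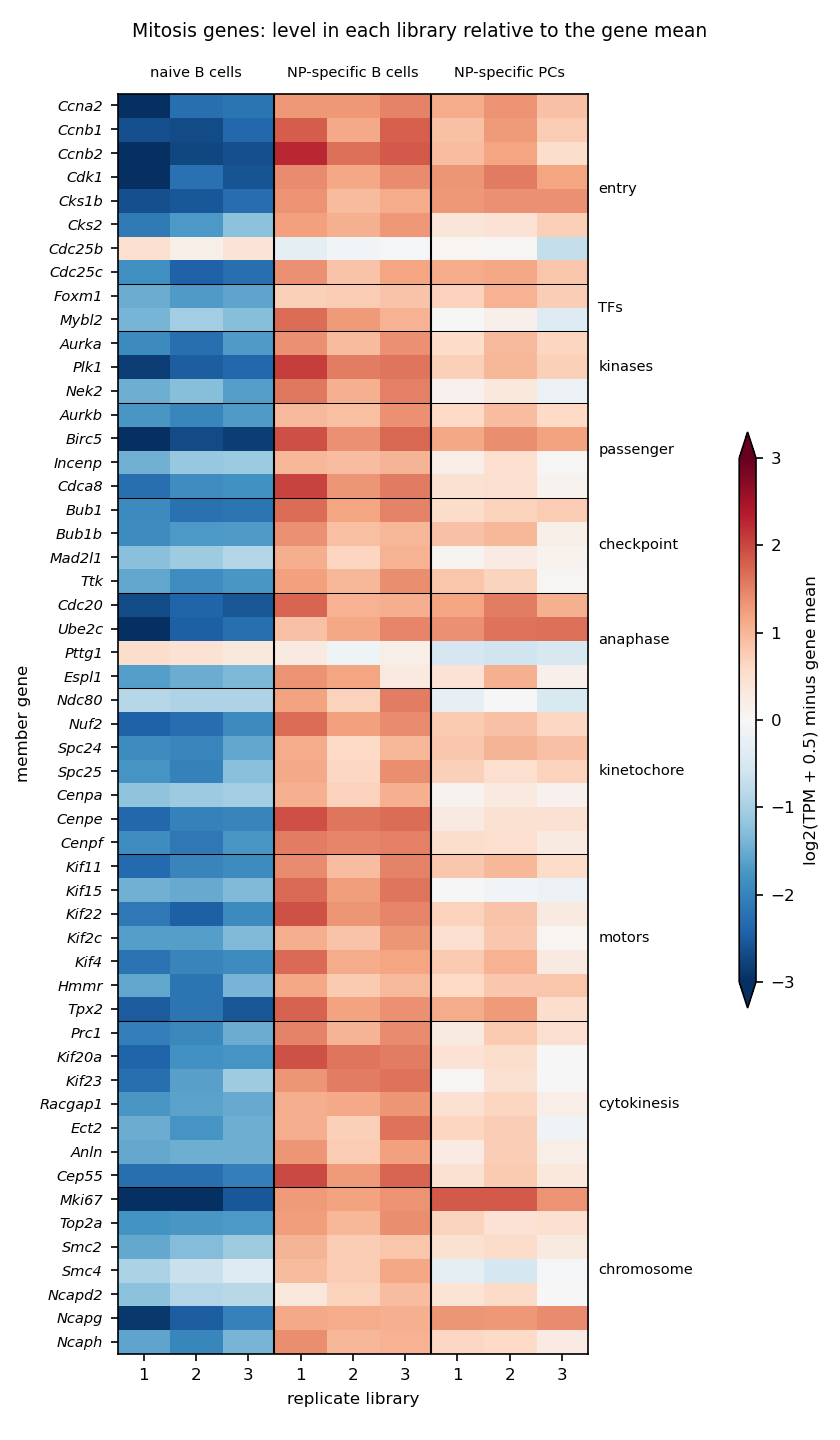
Each row is 1 of the 53 members, grouped by role, and each column 1 library; colour gives log2(TPM + 0.5) minus the gene's mean over the 9 libraries, and values beyond 3 in either direction take the end colour. Naive libraries are blue for all members but Cdc25b and Pttg1, and PC libraries are paler than those of NP+ B cells for most rows, with Mki67, Ube2c, Cks1b, Ncapg, Foxm1, Cdk1 and Spc24, the 7 members with a log2 change above 0, as exceptions in this table without immunoglobulin genes.

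Among the genes of mitotic entry, 7 of 8 rose in NP+ B cells and 1, Ccnb2, was lower in PCs. Ccnb2, which encodes cyclin B2, was measured at 5.86, 7.34 and 7.78 TPM in the naive libraries, 249, 164 and 186 TPM in NP+ B cells and 98.6, 117 and 73.99 TPM in PCs. The 3 groups did not overlap. Its log2 change was 4.72 ± 0.29 (SE) from naive to NP+ B cells (adjusted p = 2.2e-06) and -1.05 ± 0.18 from those to PCs (adjusted p = 0.0006). Cks1b, the Cdk-binding adaptor, was the most abundant member in NP+ B cells and PCs, though not in naive cells, at 23.3, 24.98 and 29.9 TPM (naive), 374, 284 and 321 TPM (NP+ B) and 362, 381 and 382 TPM (PCs). Of the PC libraries of Cks1b 1 lay within the range of NP+ B cells and the other two just above it (log2 change 0.21 ± 0.11, adjusted p = 0.12). Its paralogue Cks2 stood at 21.4, 28.3 and 40.1 TPM (naive), 225, 198 and 235 TPM (NP+ B) and 123, 128 and 156 TPM (PCs), so that every PC library was below every NP+ B cell library, although the change of -0.69 ± 0.15 did not reach 2-fold.

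Cdc25b, the phosphatase that starts activation of cyclin B and Cdk1, ran the other way. It was listed at 109, 89.9 and 103 TPM in naive B cells, 65.7, 74.01 and 75.7 TPM in NP+ B cells and 82.2, 80.2 and 47.9 TPM in PCs, with log2 changes of -0.49 ± 0.18 (adjusted p = 0.052) and -0.56 ± 0.19 (adjusted p = 0.022) against naive cells, neither past 2-fold. The change in PCs was -0.31 (adjusted p = 0.051) without PC replicate 3 and -0.07 (adjusted p = 0.77) with median-of-ratios scaling. The naive libraries were the 3 highest. Cdc25c, the other phosphatase of the module, averaged 1.55 ± 0.435 TPM in naive B cells, 19.8 ± 3.49 TPM in NP+ B cells and 18.4 ± 2.25 TPM in PCs (SD, n = 3). Exons of Cdc25b overlap those of Spef1 on the other strand, and the library kit does not mark strand, so reads from the shared bases cannot be told apart. Of the remaining entry genes, PC means stood at 84.4% (Ccna2), 64.7% (Ccnb1) and 102% (Cdk1) of the mean of NP+ B cells.

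Both transcription factors of the module rose in NP+ B cells, and 1, Mybl2, was lower in PCs. Mybl2, the B-Myb subunit that joins the MuvB complex in S phase, was at 6.55, 8.50 and 7.12 TPM in naive cells, 59.04, 44.2 and 37.6 TPM in NP+ B cells and 17.8, 20.2 and 13.6 TPM in PCs. It rose by 2.56 ± 0.24 (adjusted p = 1.9e-05) and was then lower by a log2 change of -1.41 ± 0.20 (adjusted p = 0.00014), with no overlap between groups. Foxm1, the forkhead factor that follows it in G2, was at 2.55, 2.13 and 2.37 TPM (naive), 13.5, 14.1 and 14.9 TPM (NP+ B) and 13.3, 17.1 and 13.8 TPM (PCs). Its PC libraries straddled those of NP+ B cells (log2 change 0.05 ± 0.15, adjusted p = 0.81), and the changes of these genes were not tested against each other. Exons of Foxm1 overlap same-strand annotated exons of Tex52 and Gm44596.

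All 3 mitotic kinases of the centrosome and spindle rose in NP+ B cells. Aurka, which matures centrosomes, was at 7.01, 5.38 and 8.21 TPM in naive cells, 72.1, 53.6 and 72.4 TPM in NP+ B cells and 41.1, 54.8 and 43.2 TPM in PCs, and 1 PC library exceeded the lowest of NP+ B cells. Plk1, the Polo-like kinase, was at 2.67, 3.53 and 3.89 TPM (naive), 93.4, 64.7 and 67.99 TPM (NP+ B) and 36.5, 44.1 and 36.6 TPM (PCs), a 22.4-fold rise in means, and all PC libraries were below those of NP+ B cells (-0.92 ± 0.16, adjusted p = 0.00053, under 2-fold). Nek2, the kinase that parts the centrosomes, was at 7.49, 8.57 and 6.52 TPM (naive), 65.95, 45.7 and 62.4 TPM (NP+ B) and 23.6, 26.998 and 19.1 TPM (PCs). Nek2 was the one of these kinases called lower in PCs (-1.30 ± 0.18, adjusted p = 0.00011), and the change of Nek2 was not tested against those of Aurka and Plk1.

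All 4 genes of the chromosomal passenger complex, which corrects faulty attachments, rose in NP+ B cells. Birc5, or survivin, was at 9.39, 14.1 and 12.9 TPM in naive cells, 362, 243 and 311 TPM in NP+ B cells and 212, 248 and 216 TPM in PCs. Cdca8, or borealin, was at 9.52, 12.7 and 13.1 TPM (naive), 195, 120.4 and 141 TPM (NP+ B) and 65.4, 67.02 and 51.01 TPM (PCs). The PC libraries of Cdca8 fell clear of NP+ B cells (-1.29 ± 0.18, adjusted p = 0.00014), while 1 PC library of Birc5 exceeded the lowest of theirs (-0.42 ± 0.14, adjusted p = 0.03). Means in PCs were 86.8 ± 12.1 TPM for Aurkb, the kinase of the complex, and 27.8 ± 4.80 TPM for its scaffold Incenp, which were 76.5% and 60.3% of the means of NP+ B cells.

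The 4 spindle checkpoint genes rose in NP+ B cells, and none passed 2-fold between them and PCs. Mad2l1, the inhibitor of Cdc20, was at 19.6, 22.4 and 25.8 TPM (naive), 102, 74.5 and 98.4 TPM (NP+ B) and 50.4, 56.7 and 51.1 TPM (PCs). Bub1b, the BubR1 subunit of the same inhibitory complex, was at 6.41, 7.21 and 7.40 TPM (naive), 66.05, 46.9 and 50.5 TPM (NP+ B) and 46.5, 50.3 and 28.2 TPM (PCs). The PC libraries of Mad2l1 were separate from those of NP+ B cells (-0.78 ± 0.14, adjusted p = 0.00081), and those of Bub1b overlapped them (-0.41 ± 0.21, adjusted p = 0.12). The checkpoint kinases Bub1 and Ttk had PC means at 56.8% and 62.1% of those of NP+ B cells.

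Of the anaphase genes, 3 of 4 rose in NP+ B cells and none was called in either direction between these cells and PCs. Ube2c, the ubiquitin-conjugating enzyme that works with the anaphase-promoting complex, was at 6.9997, 14.1 and 16.3 TPM in naive cells, 146, 179 and 221 TPM in NP+ B cells and 206, 248 and 251 TPM in PCs. The groups of NP-specific cells overlapped (0.38 ± 0.18, adjusted p = 0.096), with the PC mean at 129%. Cdc20, the activator of that complex, was at 10.5, 12.8 and 11.5 TPM (naive), 237, 146 and 149 TPM (NP+ B) and 159.7, 204 and 147 TPM (PCs), and its level in PCs overlapped that in NP+ B cells (-0.03 ± 0.18, adjusted p = 0.9). Both genes share exonic bases with a neighbour on the other strand, Tnnc2 for Ube2c and Elovl1 for Cdc20.

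Pttg1, which encodes securin, the inhibitor of separase, was at 97.9, 91.9 and 86.2 TPM in naive cells, 82.3, 62.9 and 76.7 TPM in NP+ B cells and 47.6, 44.6 and 49.1 TPM in PCs. The 3 groups did not overlap and were ordered from naive cells down to PCs. The log2 change was -0.33 ± 0.12 (adjusted p = 0.044), -0.96 ± 0.12 for PCs against naive cells (adjusted p = 5.4e-05) and -0.64 ± 0.13 for PCs against NP+ B cells (adjusted p = 0.0014), none past 2-fold. Espl1, separase itself, averaged 1.21 ± 0.179 TPM, 9.17 ± 3.33 TPM and 6.76 ± 2.43 TPM in the same order of groups (SD, n = 3) and rose by 2.43 ± 0.41 in NP+ B cells (adjusted p = 0.001).

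**Figure D3:**
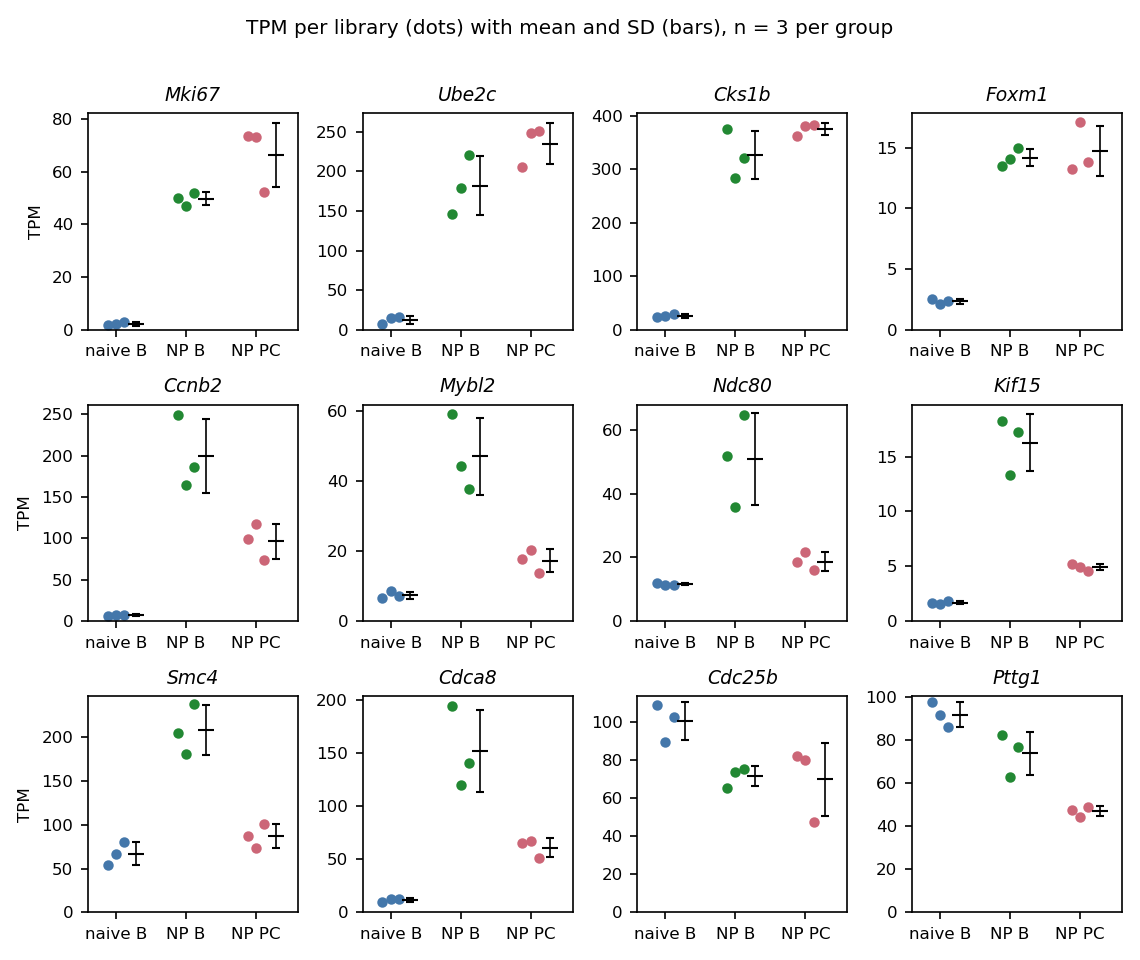
TPM of 12 members in each library (dots), with the mean and SD of 3 libraries beside them; each axis starts at 0. The upper row holds members whose PC mean was above that of NP+ B cells in the table without immunoglobulin genes (with them it was lower), the middle row and the first panels of the lower row hold members called lower in PCs, and Cdc25b and Pttg1 are highest in naive B cells.

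All 7 centromere and kinetochore genes rose in NP+ B cells, and 3 of them, Ndc80, Cenpe and Cenpf, were lower in PCs, where 22.3% of all genes were. With median-of-ratios scaling the call remained for Ndc80 (-1.01) but not for Cenpe (-0.97) or Cenpf (-0.69), and with quantile normalization it was lost for all 3. Cenpa, the centromeric histone, was at 47.9, 52.4 and 54.1 TPM in naive cells, 235, 181 and 234 TPM in NP+ B cells and 119.9, 136 and 121 TPM in PCs. Ndc80, the microtubule-binding subunit of the complex of that name, was at 12.02, 11.4 and 11.3 TPM (naive), 51.9, 35.9 and 64.6 TPM (NP+ B) and 18.4, 21.7 and 15.97 TPM (PCs). Spc24, which anchors the same complex to the centromere, was at 13.4, 12.9 and 17.03 TPM (naive), 111, 77.6 and 102 TPM (NP+ B) and 89.6, 104 and 94.98 TPM (PCs). The PC level of Ndc80 was above every naive library but well under NP+ B cells (-1.39 ± 0.22, adjusted p = 0.00026), whereas that of Spc24 fell inside the range of NP+ B cells (0.01 ± 0.14, adjusted p = 0.98). The other subunits of this complex, Nuf2 and Spc25, had PC means at 61.6% and 73.7% of those of NP+ B cells.

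Cenpe, a kinesin that moves chromosomes to the spindle equator, was at 0.845, 1.18 and 1.25 TPM in naive cells, 25.7, 20.5 and 21.4 TPM in NP+ B cells and 7.84, 8.96 and 8.94 TPM in PCs. Cenpf, a large protein of the outer kinetochore, was at 3.01, 2.38 and 3.29 TPM (naive), 36.6, 34.6 and 35.7 TPM (NP+ B) and 17.8, 17.7 and 14.8 TPM (PCs). Neither gene had a PC library near those of NP+ B cells, and the log2 changes were -1.34 ± 0.16 (adjusted p = 4e-05) and -1.07 ± 0.13 (adjusted p = 5.2e-05).

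All 7 spindle motors and microtubule-binding proteins rose in NP+ B cells and 1 was lower in PCs. Kif15, a kinesin that helps keep the spindle bipolar, was at 1.63, 1.54 and 1.81 TPM in naive cells, 18.3, 13.4 and 17.2 TPM in NP+ B cells and 5.21, 4.95 and 4.61 TPM in PCs. Its change of -1.62 ± 0.19 (adjusted p = 3e-05) was the most negative of the module in this comparison, and it was also the member still called under every scaling tried. Kif22, a motor on chromosome arms, was at 5.33, 4.21 and 6.36 TPM (naive), 97.1, 64.1 and 70.8 TPM (NP+ B) and 41.2, 46.3 and 30.9 TPM (PCs), and Tpx2, which activates Aurka and nucleates microtubules, at 3.52, 4.45 and 3.33 TPM (naive), 77.1, 52.2 and 57.9 TPM (NP+ B) and 48.3, 55.1 and 32.4 TPM (PCs). The PC libraries of Kif22 were separate from those of NP+ B cells, and those of Tpx2 were not. Among the others, PC means ran from 63.8% (the chromokinesin Kif4) to 85.3% (the spindle protein Hmmr), with Kif11, the main motor of bipolar spindles, at 70.4% and the depolymerase Kif2c at 64.1%.

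All 7 genes of the central spindle and cytokinesis rose in NP+ B cells, and 3, Kif20a, Kif23 and Cep55, were lower in PCs, where 22.3% of all genes were. With median-of-ratios scaling all 3 lay under 2-fold, at log2 changes of -0.99 (Kif20a), -0.95 (Kif23) and -0.76 (Cep55), and with quantile normalization none of them was called. Prc1, which bundles the microtubules of the central spindle, was at 6.92, 7.62 and 10.4 TPM in naive cells, 85.9, 62.1 and 81.9 TPM in NP+ B cells and 36.9, 52.6 and 42.5 TPM in PCs. Racgap1, a subunit of centralspindlin, was at 8.64, 9.68 and 10.3 TPM (naive), 64.98, 66.7 and 76.7 TPM (NP+ B) and 41.9, 47.3 and 34.9 TPM (PCs). Its partner in that complex, the kinesin Kif23, was at 1.62, 2.81 and 4.35 TPM (naive), 24.95, 28.8 and 31.03 TPM (NP+ B) and 9.90, 13.4 and 9.84 TPM (PCs). For these 3 genes every PC library was below every NP+ B cell library, and the change was past 2-fold for Kif23 (-1.32 ± 0.21, adjusted p = 0.00028) and not for Racgap1 (-0.75 ± 0.13, adjusted p = 0.00065) or Prc1 (-0.79 ± 0.17, adjusted p = 0.0022).

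Kif20a, the kinesin that carries Aurkb to the central spindle, was at 2.24, 3.60 and 3.76 TPM in naive cells, 54.2, 43.3 and 41.4 TPM in NP+ B cells and 19.1, 20.4 and 13.8 TPM in PCs. Cep55, which recruits the machinery of final abscission, was at 2.29, 2.30 and 2.71 TPM (naive), 52.5, 32.02 and 44.1 TPM (NP+ B) and 17.97, 22.7 and 16.2 TPM (PCs). Both were separate in all groups, with log2 changes in PCs of -1.36 ± 0.18 (adjusted p = 8.7e-05) and -1.14 ± 0.20 (adjusted p = 0.00056). Exons of Kif20a overlap those of Cdc23 on the other strand. The lowest levels of this role in NP+ B cells were those of Ect2, which activates the GTPase of the contractile ring, at 27.8 ± 9.15 TPM (SD, n = 3), and of Anln, a scaffold of that ring, at 6.02 ± 1.32 TPM.

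All 7 genes of chromosome structure rose in NP+ B cells, and in PCs 1, Smc4, was lower. Smc4, an ATPase of condensin, was at 54.2, 66.9 and 80.5 TPM in naive cells, 205, 181 and 238 TPM in NP+ B cells and 86.8, 73.8 and 101 TPM in PCs. Its partner ATPase Smc2 was at 24.2, 28.3 and 33.3 TPM (naive), 144, 120.2 and 126 TPM (NP+ B) and 96.99, 104 and 84.8 TPM (PCs). The PC libraries of Smc4 overlapped the naive range, with -1.25 ± 0.16 against NP+ B cells (adjusted p = 6.2e-05), and those of Smc2 lay between the other groups (-0.45 ± 0.12, adjusted p = 0.01).

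Mki67 and Ncapg are shown as the members whose PC libraries all lay above those of NP+ B cells, a choice made after their values were seen. Mki67, the Ki-67 protein that coats mitotic chromosomes, was at 1.58, 2.09 and 3.07 TPM in naive cells, 50.1, 47.01 and 51.9 TPM in NP+ B cells and 73.5, 73.1 and 52.5 TPM in PCs. All PC libraries were higher than those of NP+ B cells, by a log2 change of 0.40 ± 0.15 (adjusted p = 0.045) that is under 2-fold. Ncapg, a subunit of condensin I, was at 1.96, 2.80 and 3.97 TPM (naive), 39.6, 39.02 and 37.9 TPM (NP+ B) and 44.9, 44.5 and 48.4 TPM (PCs), and it too had no overlap (0.24 ± 0.13, adjusted p = 0.13). The other condensin I subunits, Ncapd2 and Ncaph, had PC means at 79.1% and 63.04% of those of NP+ B cells, and Top2a, which untangles sister chromatids, was at 61.8%. When immunoglobulin genes were kept in the table, where they take a large share of PC transcripts, Mki67 and Ncapg had log2 changes of -0.78 and -0.93 in PCs.

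**Figure D4:**
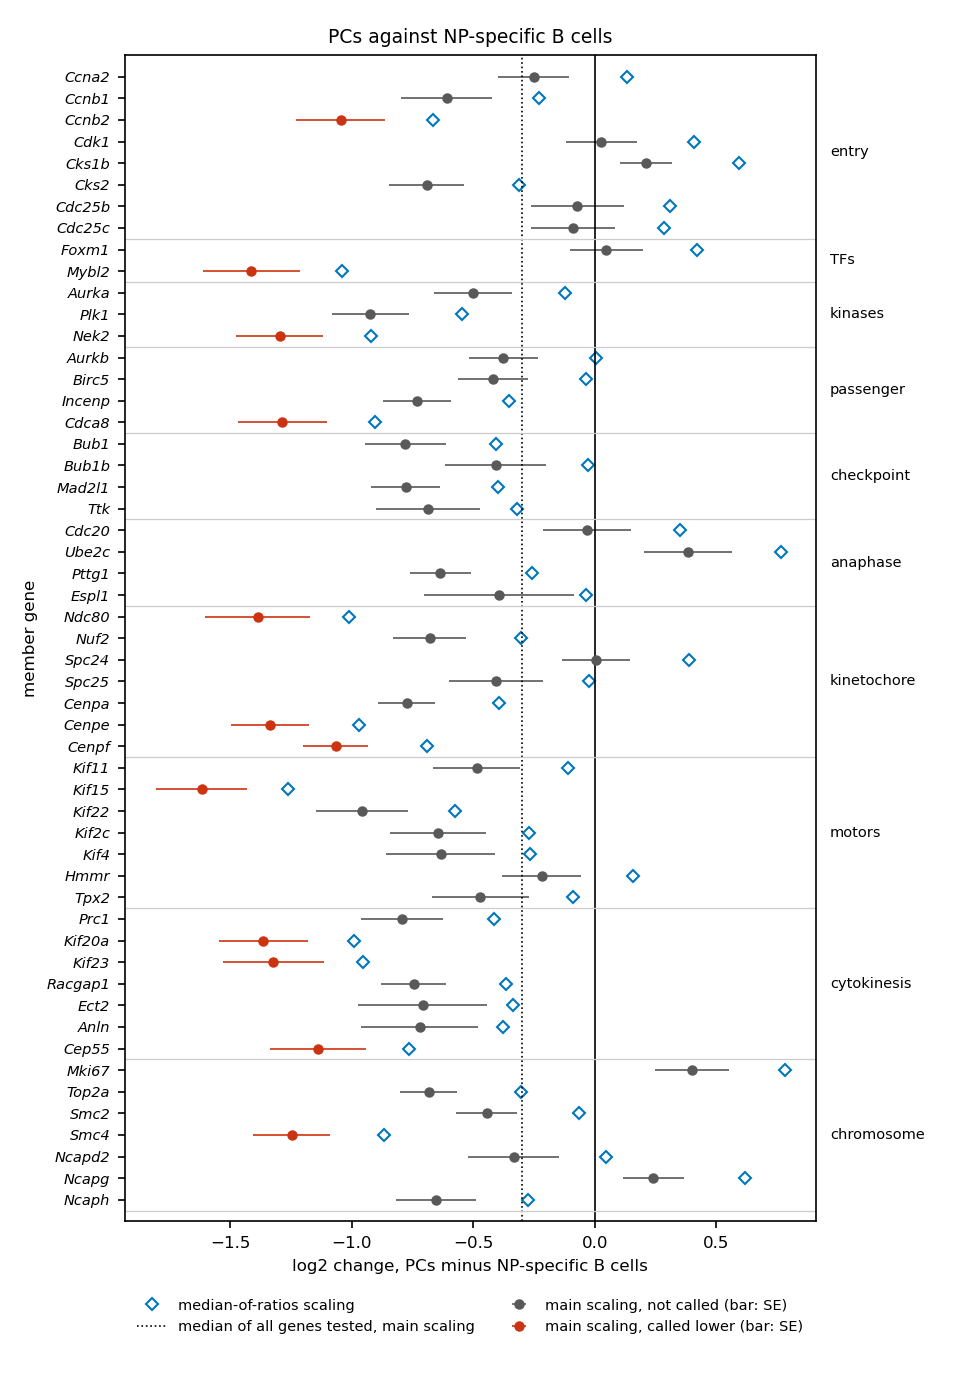
Log2 change of each member from NP+ B cells to PCs, with bars for the SE of the limma fit over 9 libraries. Filled red points are the 12 members called lower, grey points those not called, open diamonds the same change under median-of-ratios scaling, which sits to the right for every member, and the dotted line is the median of all genes tested, -0.30.

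Over the 51 members that rose in NP+ B cells, the PC mean was a median of 62.1% of the mean in NP+ B cells, from 30.2% (Kif15) to 134% (Mki67). The 6 members with the higher mean in PCs were Mki67, Ube2c, Ncapg, Cks1b, Foxm1 and Cdk1, and all 6 were lower in PCs when immunoglobulin genes were kept in the table. A ratio of 2 members within a library does not depend on the scaling between libraries, and 19 such ratios were formed after the values had been seen, so they are given as a description with no test. Ndc80 over Spc24, subunits of one complex, was 0.896, 0.886 and 0.664 in naive libraries, 0.469, 0.463 and 0.631 in NP+ B cells and 0.205, 0.208 and 0.168 in PCs. Cdca8 over Birc5 was 1.01, 0.895 and 1.01 (naive), 0.538, 0.496 and 0.454 (NP+ B) and 0.308, 0.270 and 0.236 (PCs). In both pairs the PC libraries were the lowest and those of naive B cells the highest.

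Smc4 over Ncapg was 27.7, 23.9 and 20.3 in naive libraries, 5.17, 4.63 and 6.27 in NP+ B cells and 1.93, 1.66 and 2.09 in PCs. Mybl2 over Foxm1 was 2.57, 3.98 and 3.001 (naive), 4.36, 3.14 and 2.52 (NP+ B) and 1.34, 1.18 and 0.987 (PCs), so that naive and NP+ B cells overlapped and PCs were apart. Ccnb2 over Cdk1 was 1.44, 1.12 and 1.07 in NP+ B cells and 0.600, 0.610 and 0.503 in PCs, and Kif15 over Kif11 was 0.481, 0.492 and 0.427 in NP+ B cells and 0.208, 0.174 and 0.222 in PCs. Among the 19, the libraries of NP+ B cells and PCs overlapped for Mad2l1 over Bub1b, Kif20a over Prc1, Cdc20 over Ube2c and Pttg1 over Espl1.

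**Figure D5:**
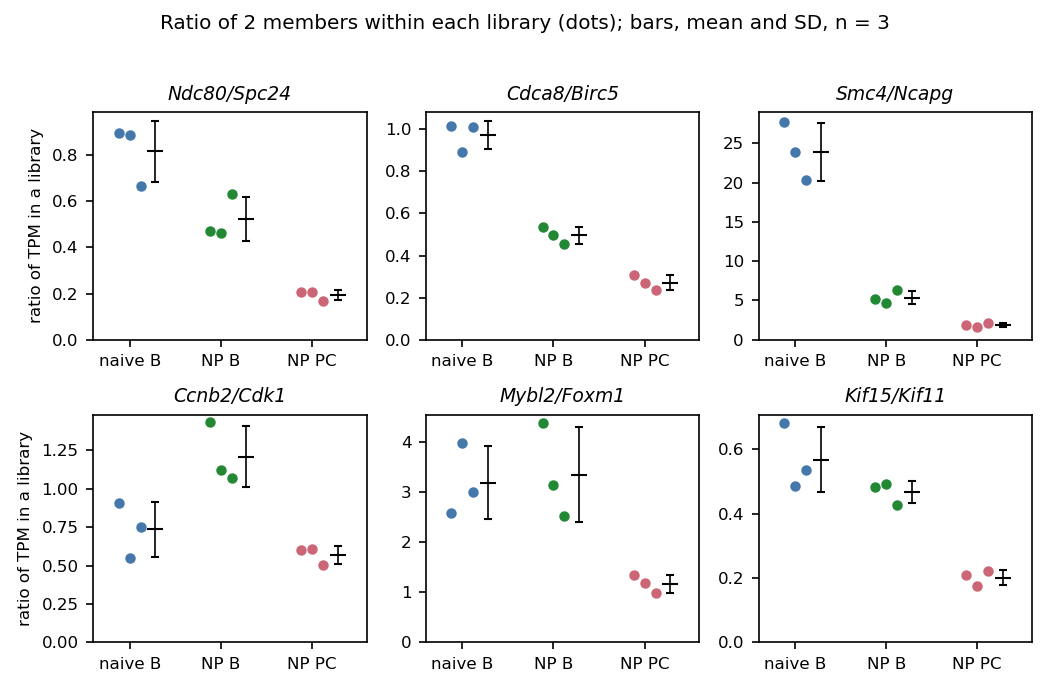
Ratio of the TPM of 2 members within each library (dots), with the mean and SD of 3 libraries beside them; axes start at 0. In each of the 6 panels the PC libraries lie below those of NP+ B cells.

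Other genes of the pathway were read from lists outside the module. Of 81 further mitosis genes, 65 were higher in NP+ B cells than in naive cells (8.13% of all genes) and 0 lower (10.4%), and between PCs and NP+ B cells 16 (19.8%) were lower and 0 higher, below the 22.3% and 9.93% of all genes, with a median log2 change of -0.56 against -0.30. At any fold 43 were lower, where 38.1% of all genes were. Past 2-fold, 8 were lower with median-of-ratios scaling (14.7% of all genes), 6 with quantile normalization (14.3%) and 68 with immunoglobulin genes kept (59.7%). The 3 with the largest changes there were Fam64a, a mitotic regulator also called Pimreg, Lmnb1, which encodes lamin B1 of the nuclear envelope, and Psrc1, a microtubule-binding protein. Fam64a was at 1.73, 2.65 and 1.87 TPM in naive cells, 22.9, 12.7 and 12.7 TPM in NP+ B cells and 1.84, 1.89 and 0.993 TPM in PCs. Lmnb1 was at 8.03, 6.29 and 11.5 TPM (naive), 61.3, 48.9 and 52.6 TPM (NP+ B) and 10.5, 6.23 and 4.34 TPM (PCs), and Psrc1 at 0.388, 1.24 and 0.334 TPM (naive), 17.5, 10.7 and 16.1 TPM (NP+ B) and 1.66, 1.75 and 2.15 TPM (PCs). For Fam64a and Lmnb1 the PC and naive libraries overlapped, and the changes against NP+ B cells were -2.98 ± 0.35, -2.94 ± 0.27 and -2.67 ± 0.30 for the 3 genes (adjusted p = 3.2e-05, 4.6e-06 and 2.3e-05).

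The anaphase-promoting complex and cohesin, which are needed in mitosis but are also present in resting cells, gave few calls. Of their 25 core genes 0 were called in either direction between naive and NP+ B cells under the rule of adjusted p under 0.05 and 2-fold, and at any fold 9 of them had more RNA in NP+ B cells and 2 had less, where 18.6% and 23.5% of all genes did. Past 2-fold, 2 were higher there with median-of-ratios scaling (9.39% of all genes), and 1 without NP+ B cell replicate 2 (9.25%) or 3 (7.96%). In PCs against NP+ B cells 2 were lower, where 22.3% of all genes were, the cohesin regulator Pds5a (-1.17 ± 0.29, adjusted p = 0.0055) and Anapc10 (-1.07 ± 0.29, adjusted p = 0.01), and at any fold 13 were, where 38.1% of all genes were. Past 2-fold, 0 were lower with median-of-ratios scaling or quantile normalization (14.7% and 14.3% of all genes) and 21 with immunoglobulin genes kept (59.7%). TTTGAA was in the promoter windows of 3 of 21 of these genes (14.3%), and in 32 of 66 (48.5%) of the further mitosis genes. The lists matched to promoter windows held 26 and 85 names, with older and newer names of a gene entered separately. The expression comparisons held 25 and 81 genes.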

How the data were processed

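Total RNA of sorted spleen cells was made into SMART-Seq v4 libraries, which do not mark strand. The authors quantified transcripts with kallisto (mm10 per the submitters' processing notes) and deposited TPM, with and without immunoglobulin genes, and voom log2 values. Here TPM of the table without immunoglobulin genes was fitted with voom and limma 3.58.1 (R 4.3.3) over 9 libraries with 3 group means, column sums as library sizes and no block; 12892 genes reaching a TPM of 1 in 3 or more libraries entered the fit. A gene was called at a Benjamini-Hochberg adjusted p under 0.05 and a fold change over 2. Estimated reads, 20189900 to 38602300 per library, were recovered from the TPM and log2 tables. The fit was tested on simulated data, and the outcome of that test is not given here. The members, roles and lists were chosen with earlier results of these data known. Values are given for the 2 highest members of each role, each member whose call differed from most of its role, Mki67 and Ncapg (added after their values were seen), and the 3 largest changes per direction of the other lists. The study describes the replicates as mice, but the labels do not say which libraries share one. Alternatives covered scaling, filters, offsets, thresholds, immunoglobulin genes, blocking and leaving out each library. Promoter windows and names came from RefSeq tables (GRCm38.p6), overlaps from GENCODE annotation of the same build. By that annotation 13 members share exonic bases with a gene on the other strand. Besides Cdc25b, Ube2c, Cdc20 and Kif20a these are Ccna2, Cdc25c, Plk1, Nek2, Cdca8, Kif22, Kif4, Prc1 and Ncapg. Overlaps on the same strand were found for 3 members, Foxm1, Top2a and Ncapd2. The effect of these overlaps on the levels was not tested.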

Additional observations from a re-analysis of the deposited data

How the results depend on the processing

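The counts of members higher in NP+ B cells (51) and in PCs (49) against naive cells were the same without any 1 library, and at any fold the members lower in PCs than in NP+ B cells ranged from 26 to 38. Members lower in PCs than in NP+ B cells were 12 as reported, 3 with median-of-ratios scaling, 1 with quantile normalization, 49 with immunoglobulin genes kept, 36 at any fold and 32 past a log2 change of 0.5, and 10 to 14 without 1 library. At any fold 1 member was higher there. The median log2 change was -0.65 as reported, -0.28 with median-of-ratios scaling, -0.25 with quantile normalization, -1.80 with immunoglobulin genes, and -0.76 to -0.50 without 1 library. For PCs against naive cells 34 members were higher with immunoglobulin genes kept, so that 15 of the 49 lost the call, and the median of 2.35 became 2.81 with median-of-ratios scaling, 2.87 with quantile normalization, 1.21 with immunoglobulin genes, 2.64 on the deposited log2 values and 2.65 on recovered estimated counts. Members lower there were 2 with immunoglobulin genes, 2 at any fold, 2 past a log2 change of 0.5, and 0 to 1 without 1 library, the 1 being without naive replicate 3. For NP+ against naive B cells the median of 2.96 became 3.20 with log2(TPM + 0.1), 3.30 on the deposited log2 values and 3.31 on recovered counts, and 1 member was lower at any fold. The causes of these shifts were not tested.

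Some directions reversed for members that were not called in PCs against NP+ B cells. With median-of-ratios scaling the log2 changes were 0.13 (Ccna2), 0.31 (Cdc25b), 0.29 (Cdc25c), 0.0054 (Aurkb), 0.35 (Cdc20), 0.16 (Hmmr) and 0.046 (Ncapd2), and with quantile normalization 0.011 (Ccna2), 0.25 (Cdc25b), 0.34 (Cdc25c), 0.13 (Cdc20), 0.059 (Espl1), 0.20 (Hmmr) and 0.054 (Ncapd2). With immunoglobulin genes kept they were -1.17 (Cdk1), -0.995 (Cks1b), -1.06 (Foxm1), -0.82 (Ube2c), -1.19 (Spc24), -0.78 (Mki67) and -0.93 (Ncapg), and against naive cells -0.48 (Ndc80) and -0.83 (Smc4). Cdc20 was at 0.033 on the deposited log2 values and 0.032 on recovered counts. Without 1 library, Cdk1 ran from -0.0726 to 0.12, Cdc25b ran from -0.21 to 0.18, Cdc25c ran from -0.23 to 0.0258, Foxm1 ran from -0.0602 to 0.11, Cdc20 ran from -0.17 to 0.19 and Spc24 ran from -0.14 to 0.11. The median over all genes in the same comparison was 0.0249 without the filter, 0.037 with median-of-ratios scaling and 0.0016 with quantile normalization; against naive cells the median of the 25 anaphase-promoting complex and cohesin genes was 0.16 with median-of-ratios scaling, and that of the 41 replication genes -0.57 with immunoglobulin genes.

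Libraries of the same number in different groups had deviations that correlated at -0.07 to 0.07, so the numbers were not taken to pair them. With the replicate number as a block, 51 and 49 members were higher and 12 lower in the same comparisons, and no member's call past 2-fold changed; the any-fold call of Pttg1 between naive and NP+ B cells was lost (adjusted p = 0.051). All members lay above the floor of 3 estimated reads in every library, and the effect of depth on their precision was not tested.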

Other observations

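Among 41 genes of DNA replication, which act in the S phase that precedes mitosis, 31 were higher in NP+ B cells than in naive cells (8.13% of all genes) and 0 lower (10.4%), with a median log2 change of 1.80. Between PCs and NP+ B cells 16 (39%) were lower and 0 higher, where 22.3% and 9.93% of all genes were, with a median of -0.80. With median-of-ratios scaling 8 were lower (14.7% of all genes), with quantile normalization 7 (14.3%) and with immunoglobulin genes kept 39 (59.7%). In PCs against naive cells 15 were higher (11.4% of all genes) and 2 lower (26.3%), and with immunoglobulin genes kept 6 were higher (4.47%) and 9 lower (64.5%). With median-of-ratios scaling 24 were higher there (17.4%) and 1 lower (15.3%), and with quantile normalization 21 were higher (16.0%) and 2 lower (15.9%). The largest changes were those of Pold1, the catalytic subunit of DNA polymerase delta, at 177, 158 and 157 TPM in naive cells, 124, 92.9 and 87.6 TPM in NP+ B cells and 15.4, 20.3 and 15.8 TPM in PCs, and of the chromatin assembly factor genes Chaf1b, at 13.7, 11.8 and 11.6 TPM (naive), 82.6, 51.9 and 50.3 TPM (NP+ B) and 12.4, 11.8 and 11.95 TPM (PCs), and Chaf1a, at 2.19, 1.94 and 3.02 TPM (naive), 29.5, 21.3 and 28.4 TPM (NP+ B) and 8.59, 7.10 and 3.72 TPM (PCs). Their log2 changes in PCs against NP+ B cells were -2.52 ± 0.18, -2.27 ± 0.22 and -2.00 ± 0.26 (SE, adjusted p = 7.4e-07, 7.8e-06 and 7e-05). The PC level of Pold1 was far under the naive level, that of Chaf1b within the naive range, and that of Chaf1a was above it. The summed level of the mitosis genes over that of the replication genes was 0.515 to 0.586 in naive libraries, 1.21 to 1.32 in NP+ B cells and 1.39 to 1.54 in PCs, a ratio within each library that had no overlap between groups and was not tested.

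Within each group, 1 library held the highest level of most mitosis genes. In naive B cells replicate 3 was the highest library for 39 of 53 members and replicate 1 the lowest for 32. In NP+ B cells replicate 1 was the highest for 33 and replicate 2 for none, and in PCs replicate 2 was the highest for 37.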
